A study of Mus musculus with 12 samples.

Results

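The comparison described here sets ALA plus a delta-6-desaturase inhibitor against ALA alone in 3T3-L1 adipocytes. These are fat cells grown in culture from a mouse preadipocyte line by a hormone cocktail. ALA is alpha-linolenic acid, an omega-3 fatty acid of plants. The transcripts of 3 ALA cultures and of 3 cultures with ALA and the inhibitor were measured on whole-transcript microarrays, with 1 culture of passage 6, 1 of passage 7 and 1 of passage 8 in each group. The series holds 12 arrays, and its other 6 are the control cultures (ethanol and DMSO) and those given the inhibitor alone. ALA was present at 50 µM with 2% albumin free of fatty acids, and the inhibitor at 5 µM, from day 0 to day 8 of differentiation. The cells were kept with 5 µg/ml insulin and harvested on day 8. The labels do not name the inhibitor, and albumin and vehicle in each arm can only be compared as far as the labels state them. Since 1 line gave all cultures, the tests cover variation among its cultures and not among lines or animals, and 3 arrays a group limit their precision.

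The description covers the genes whose mean log2 signal over the 6 arrays exceeded the mean of those arrays' medians, 6.2036. These were 10044 of the 19480 genes with a symbol, and the genes nearest that line lay at 6.2037 above it and 6.203 under it. A gene under the line in 1 group could pass it through the other group. A difference below is ALA plus inhibitor minus ALA on the log2 scale of the deposited signals, so 1 unit is a doubling.

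The delta-6-desaturase, encoded by Fads2, introduces the first double bond on the way from ALA to eicosapentaenoic and docosahexaenoic acid. The elongase Elovl5 and the delta-5-desaturase Fads1 act after it. Polyunsaturated fatty acids are known to restrain the processing of SREBP transcription factors, which drive genes of sterol and fatty acid synthesis, and in adipocytes they are ligands of PPAR receptors and of surface receptors such as Ffar4. An inhibitor of the enzyme leaves more ALA unconverted and also acts on the parallel omega-6 pathway.

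The ALA array of passage 7 stood apart before any comparison was made. Over all transcript clusters it correlated with the others at 0.976 to 0.987, whereas the remaining 11 arrays reached 0.989 to 0.994 among themselves. Its signals were also compressed, with an SD over clusters of 2.25 against 2.32 to 2.39 elsewhere. In passage 7 the genes above the array median differed by a median of 0.06 and the dimmer genes by -0.18, whereas both medians lay between -0.02 and 0.01 in passages 6 and 8. The differences of the 10044 genes had an SD of 0.41 in passage 7, 0.21 in passage 6 and 0.18 in passage 8. Each main result is therefore given with and without passage 7. All 8 measured adipocyte markers lay above the array median on average in the 6 arrays, as did 2 of 3 preadipocyte markers. None of the 4 macrophage and none of the 4 endothelial markers did, and their highest signals on any array were 5.59 and 5.45. Of the muscle, the bone and cartilage and the epithelial markers, 1 of 4, 2 of 4 and 1 of 4 did, with highest signals of 6.79, 6.79 and 6.71. In longer lists, 2 of 13 macrophage and 1 of 11 endothelial genes lay above the line.

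With the inhibitor added to ALA, 17 of 23 adipocyte markers were lower, with a median of -0.14. Adipoq, Fabp4, Fasn, Scd1 and Plin2, genes of abundant adipocyte products, differed by no more than 0.09. Among lower genes, Car3 and Pck1, both abundant in mature fat cells, showed the largest differences, a 2.71-fold and a 2.25-fold lower signal. Genes of the sterol pathway were higher together, led by Idi1 at 1.63-fold. Preadipocyte, matrix and fatty acid receptor genes were lower as groups, and stress-response genes were higher by small amounts. Ribosomal protein genes were higher mainly in passage 7, with a median of 0.26 there for the cytosolic ones and of 0.06 without it.

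A gene was called at an unadjusted p under 0.01 in limma, a linear model with a moderated variance, which is the threshold the series design names. By this rule 97 genes were called, or 0.966% of the 10044, a share near the threshold itself. Of these, 49 were higher (0.488%) and 48 lower (0.478%). No gene passed a Benjamini-Hochberg adjusted p under 0.05 in limma, where each of the 97 had an adjusted p of 0.653, and 604 genes (6.01%) lay at an unadjusted p under 0.05. The share of higher genes among the called ones was 50.5%, and it was 66.7% with every array centred on its median. With passage as a block the calls numbered 229 (2.28%), of which 84 were higher (0.836%) and 145 lower (1.44%), and the smallest adjusted p was 0.185. An SE printed below beside a call with the block is still that of the fit without it. Leaving passage 7 out of every group gave 14 calls (0.139%), 9 higher (0.0896%) and 5 lower (0.0498%), with a smallest adjusted p of 1. Leaving out only the ALA array of passage 7 gave 27 (0.269%).

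**Figure D1:**
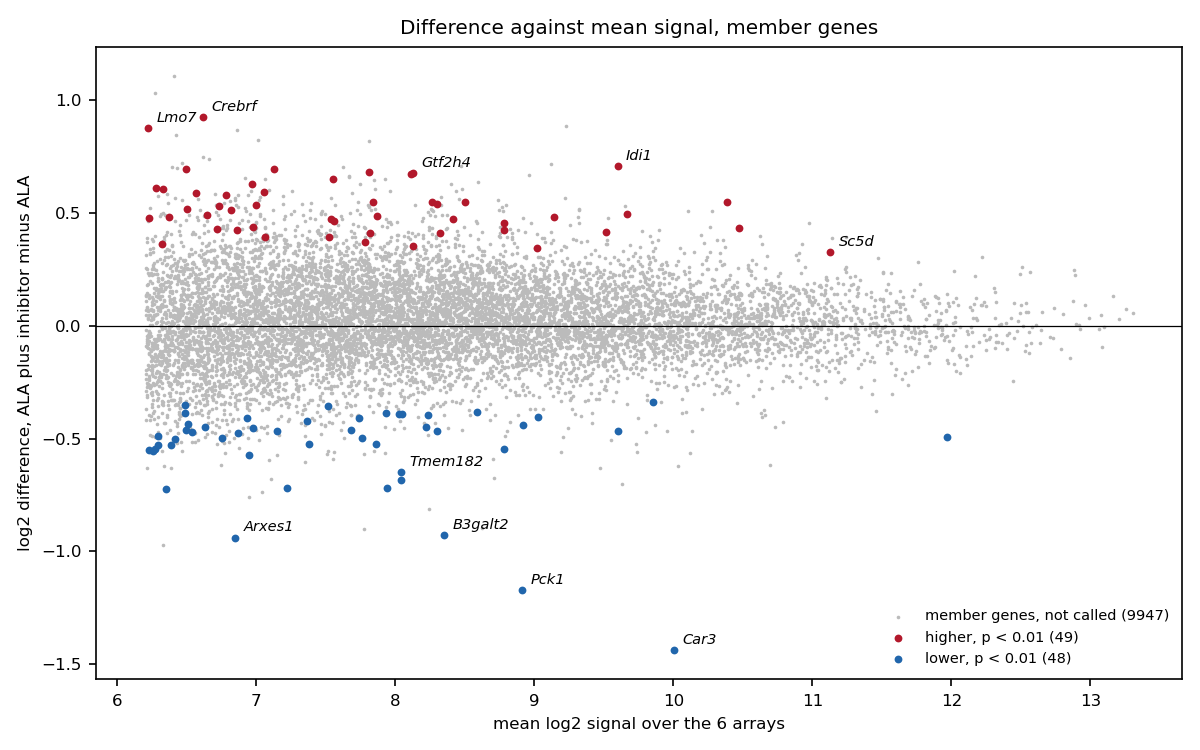
Difference between ALA plus inhibitor and ALA (log2) against the mean log2 signal over the 6 arrays, 1 point per gene above the array median; red and blue points are the 49 higher and 48 lower genes at an unadjusted p under 0.01. The median signal was 7.55 for the higher and 7.45 for the lower called genes. Several leading ones lay near the 6.2036 line, such as Lmo7 at 6.22 and Tox at 6.26, while Sc5d lay at 11.13. Car3 and Pck1 had the lowest differences, at -1.44 and -1.17.

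The 97 called genes kept their sign without passage 7, all 49 higher and all 48 lower ones. Their sizes depended on that passage. The higher genes had a median difference of 0.39 in passage 6, 0.74 in passage 7 and 0.38 in passage 8, and the lower genes -0.41, -0.67 and -0.42. Passage 7 showed the largest of the 3 differences for 39 of the higher and 39 of the lower genes. All 48 lower genes and 48 of the 49 higher genes differed the same way in every passage, against 16.5% and 18.8% of all 10044 genes. The arrays of both groups did not overlap for 45 of the lower and 47 of the higher genes, against 5.67% and 5.87% of all. These counts describe genes chosen by the same contrast and add no test to it.

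Car3 encodes a carbonic anhydrase that is among the most abundant proteins of white adipocytes. With ALA it measured 10.26, 10.70 and 11.20 at passages 6, 7 and 8, and with the inhibitor added 9.04, 8.71 and 10.10. Every array with the inhibitor lay below every array without it. The difference was -1.44 (SE 0.37), and without passage 7 it was -1.16. In these bulk samples, fewer cells of a type and less RNA per cell cannot be told apart.

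Pck1, the cytosolic phosphoenolpyruvate carboxykinase that supplies glycerol 3-phosphate for triacylglycerol, measured 9.08, 9.70 and 9.71 with ALA and 7.91, 8.31 and 8.75 with ALA plus inhibitor. The groups did not overlap, and all 3 passages differed by about the same amount, -1.17, -1.38 and -0.96. The mean difference was -1.17 (SE 0.35), and -1.06 without passage 7. Arxes1, an adipocyte gene of the X chromosome known as a target of Pparg, measured 7.19, 6.97 and 7.80 against 6.37, 5.88 and 6.89. Its difference of -0.94 (SE 0.28) was also called without passage 7 (-0.87). B3galt2, a galactosyltransferase of glycan chains, measured 8.52, 8.97 and 8.95 against 7.64, 7.72 and 8.30, a difference of -0.93 (SE 0.27), and -0.77 without passage 7.

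Slc36a2, a proton-coupled transporter of small amino acids found on brown adipocytes, differed by -0.72 (SE 0.22), and the groups overlapped. Tmem182, a membrane protein gene of muscle and fat, was tighter. It measured 8.29, 8.38 and 8.43 with ALA and 7.92, 7.45 and 7.78 with both, a difference of -0.65 (SE 0.13) that was called without passage 7 as well (-0.51). The actin-binding protein gene Ablim1 differed by -0.68 (SE 0.22), and by -0.47 without passage 7. The transcription factor genes Zic4 and Tox differed by -0.57 and -0.55. The remaining genes of the 12 with the largest lower differences were the uncharacterized 2310001K24Rik (-0.72), the defensin gene Defb36 (-0.72) and Rps4l (-0.55). Rps4l is a close copy of another ribosomal protein gene, so the probes may read both. Of these, 2310001K24Rik was also called without passage 7, at -0.56.

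Idi1, the isomerase that makes the active isoprene unit for sterols, measured 9.44, 8.71 and 9.58 with ALA and 9.98, 9.88 and 10.00 with both. The arrays with the inhibitor were close together and above all arrays with ALA alone, whose passage 7 value was the lowest. The difference was 0.71 (SE 0.22), and 0.48 without passage 7, where it was no longer called. Crebrf, a regulator of the CREB3 family of endoplasmic reticulum transcription factors, had the largest difference among the higher called genes. It measured 6.66, 5.28 and 6.52 against 7.06, 7.25 and 6.93, a difference of 0.93 (SE 0.27) that was 0.40 without passage 7. The passage 7 array with ALA was more than 1 unit below the other ALA arrays.

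Ptgs2, the inducible cyclooxygenase, measured 6.39, 5.88 and 6.16 with ALA and 7.22, 6.79 and 6.51 with both. All 3 passages were higher, by 0.82, 0.91 and 0.35, and the groups did not overlap. The mean difference was 0.69 (SE 0.20), and 0.59 without passage 7. Lmo7, which encodes a LIM domain protein of cell junctions, measured 6.04, 5.12 and 6.19 against 6.86, 6.36 and 6.74. It was called with passage 7 (0.87, SE 0.25) and without it (0.69). Gtf2h4, a subunit of the general transcription factor TFIIH, measured 7.93, 7.55 and 7.88 against 8.45, 8.42 and 8.52. Its difference of 0.68 (SE 0.12) had the smallest p of the called genes, and it was also called without passage 7 (0.58). 1810010H24Rik, an uncharacterized gene, was called both ways too, at 0.67 and 0.55.

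The ubiquitin ligase gene Hace1 differed by 0.61 (SE 0.17), and by 0.74 without passage 7, since its passage 7 difference of 0.35 was the smallest. Egfl8, a secreted protein with EGF-like domains, measured 6.05, 6.06 and 5.95 against 6.79, 6.65 and 6.44, and its difference was 0.61 with passage 7 and 0.62 without it. The 4 other genes among the 12 had smaller differences without passage 7. Eno2, an enolase of glycolysis, went from 0.69 to 0.44. Adal, an adenosine deaminase-like enzyme, went from 0.68 to 0.33, the splicing factor gene Wbp4 from 0.65 to 0.35 and Nars2, the mitochondrial asparaginyl-tRNA synthetase, from 0.63 to 0.36. None of these 4 was called without passage 7. Lmo7, Crebrf, Ptgs2, Hace1 and Egfl8 had ALA means of 5.78, 6.15, 6.14, 5.97 and 6.02, under the 6.2036 line. They passed it only through the arrays with the inhibitor. Among the lower genes, 2310001K24Rik, Tox and Rps4l had means of 5.99, 5.98 and 5.95 with both and passed it only through the ALA arrays.

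**Figure D2:**
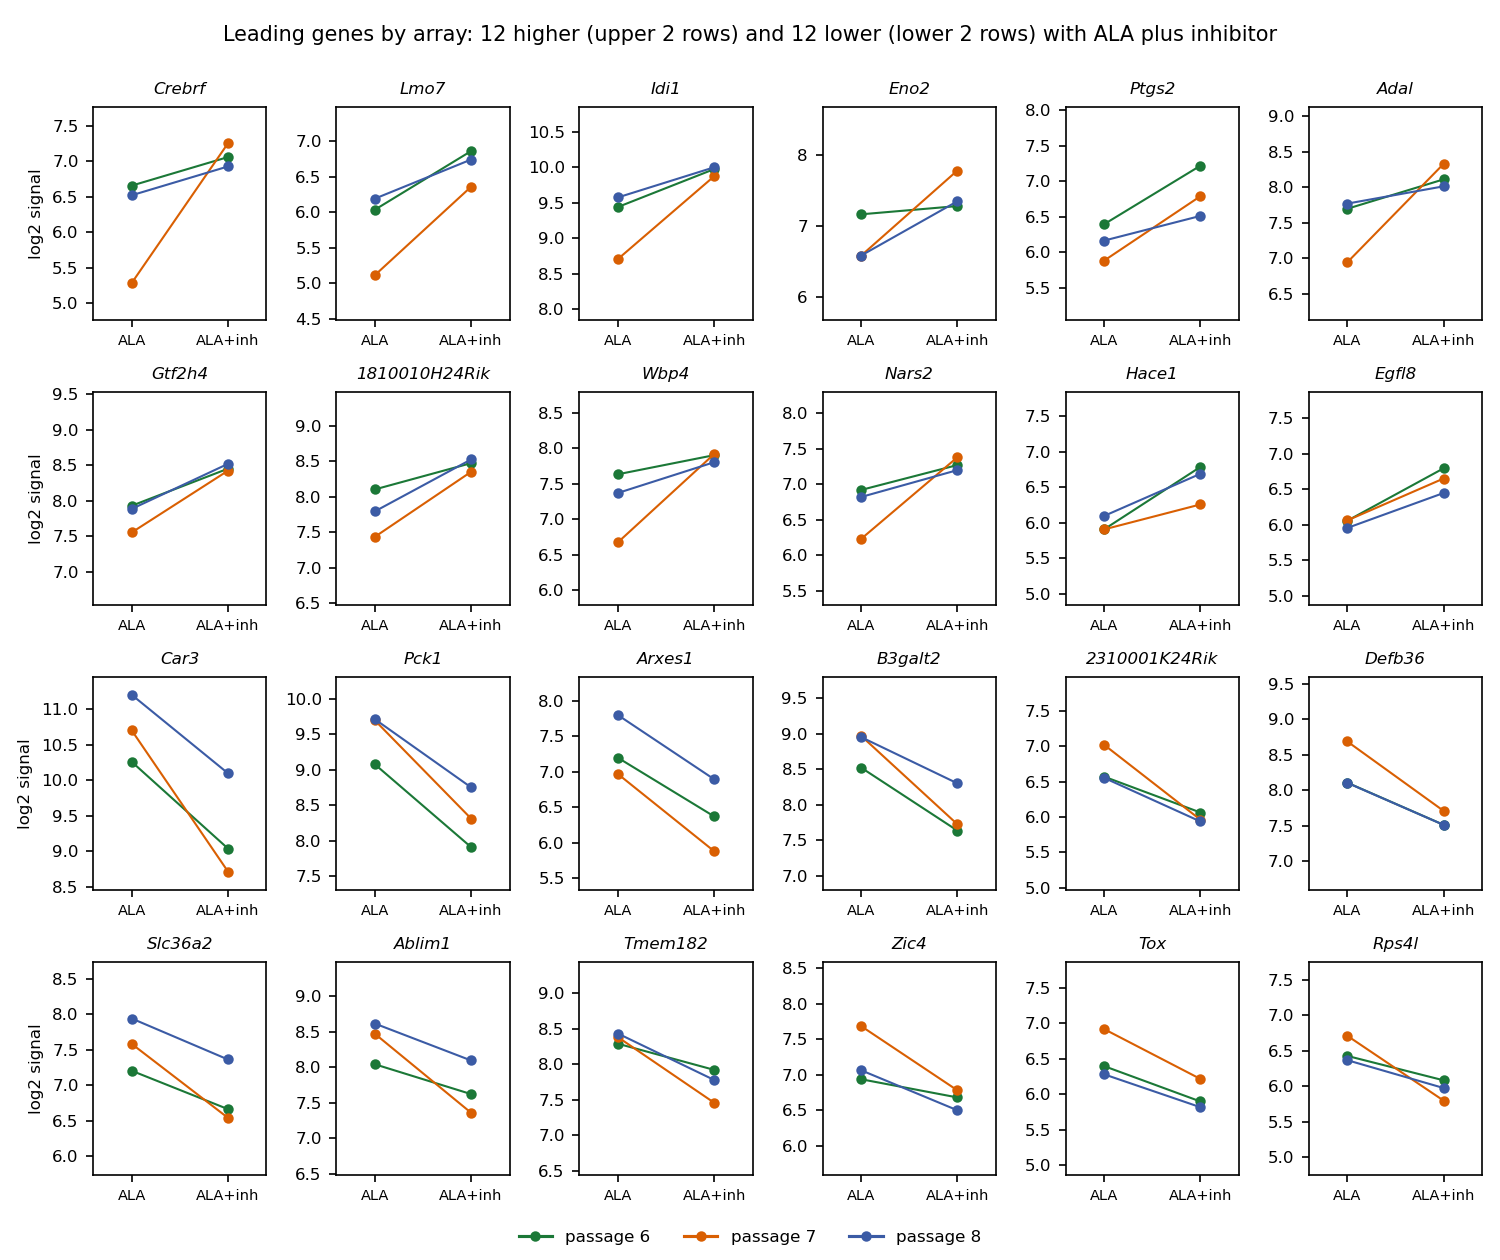
Log2 signal of the 12 higher and 12 lower called genes with the largest differences, 1 panel per gene and 1 line per passage from ALA to ALA plus inhibitor; each panel spans 3 log2 units. The lines slope the same way in all 3 passages in every panel, and those of passage 7 are the steepest in most, as for Crebrf, whose passage 7 array with ALA measured 5.28.

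Of the 9 higher and 5 lower genes called without passage 7, 6 and 4 were among the 97. Car3, Pck1, B3galt2, Idi1, Crebrf and Ptgs2 were not called without it, although each kept its sign. That fit had no passage block and 4 residual degrees of freedom, against 8 with all passages. Fewer arrays alone can therefore end a call. With passage as a block and all passages, the SEs of these genes were 0.17, 0.19, 0.17, 0.18, 0.27 and 0.21. The block was not fitted without passage 7. A few other genes took the lead without passage 7. Rcsd1, a regulator of actin capping, measured 6.75 and 6.88 with ALA and 7.45 and 7.40 with both at passages 6 and 8, a difference of 0.61, while in passage 7 it differed by 0.07. Borcs6, a subunit of a complex that positions lysosomes, differed by 0.61 without and 0.48 with passage 7. Its ALA mean of 5.99 lay under the 6.2036 line. Tmem191c differed by 0.60 without passage 7 and by -0.22 within it. Among lower genes, Cyb5rl, a cytochrome b5 reductase-like gene, measured 7.58, 7.69 and 7.65 against 7.12, 7.11 and 7.12. Its difference was -0.52 (SE 0.11) with all passages and -0.49 without passage 7, and in neither case did the groups overlap. Zscan20, a zinc finger gene, differed by -0.47 without passage 7 and by -1.32 within it.

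**Figure D3:**
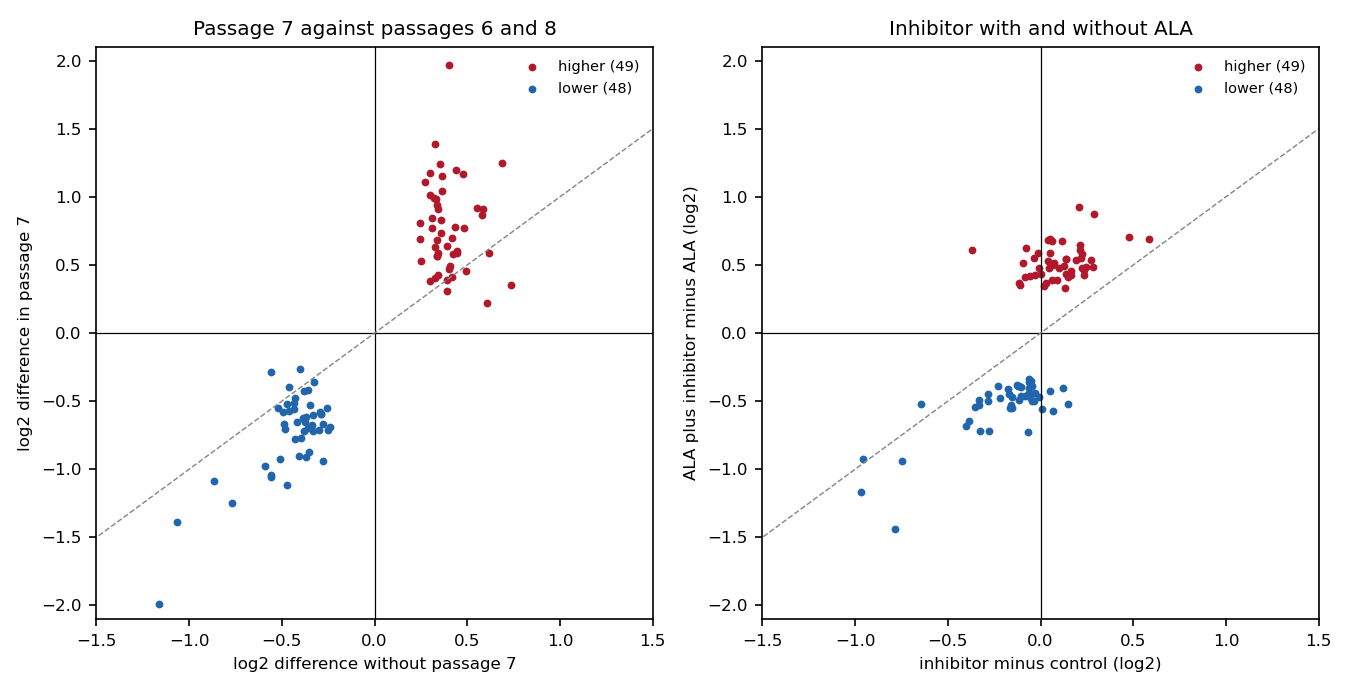
The 97 called genes, red for the 49 higher and blue for the 48 lower: on the left, the log2 difference in passage 7 against that without passage 7, and on the right, the difference made by the inhibitor with ALA against that without ALA; dashed lines mark equality. The points on the left lie mostly beyond the dashed line, with passage 7 the largest difference for 39 of the higher and 39 of the lower genes, and the points on the right lie mostly nearer 0 without ALA, as for Sc5d at 0.33 with ALA and 0.13 without.

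The genes of polyunsaturated fatty acid synthesis were mostly higher when the inhibitor was added to ALA. Of 10 genes above the array median, 8 were higher and 2 lower, with a median of 0.05 against 0.02 for all genes, and none was called. Fads2, the target of the inhibitor, measured 12.39, 12.35 and 12.39 with ALA and 12.65, 12.62 and 12.64 with both. All arrays with the inhibitor were higher, by 0.25, 0.27 and 0.25, and the mean difference was 0.26 (SE 0.09). Fads1 measured 11.48, 11.23 and 11.26 against 11.67, 11.66 and 11.55, a difference of 0.30 (SE 0.11), and 0.24 without passage 7. Elovl5 differed by 0.19 (SE 0.11), and Hacd1, a dehydratase of the elongation cycle, by 0.19.

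Sterol synthesis genes above the array median were all higher, by small amounts. All 7 mevalonate and isoprenoid genes were higher, with a median of 0.25 (0.26, 0.19 and 0.17 at passages 6, 7 and 8), against 55.2% higher and a median of 0.02 for all genes. All 10 genes from squalene to cholesterol were higher too, each of them in all 3 passages, with a median of 0.22 (0.30, 0.24 and 0.17). Without passage 7 both medians were 0.22 and all 17 genes were still higher, while over all 10044 genes 4859 were higher and 5182 lower, with a median of -0.0045. One gene of each list was called, against 0.488% of all genes called higher. With passage as a block 2 of the 7 and 3 of the 10 were called higher, against 0.836% of all genes.

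Sc5d, the desaturase of the penultimate step of cholesterol synthesis, measured 11.06, 10.86 and 10.96 with ALA and 11.40, 11.25 and 11.22 with both. The groups did not overlap, and the difference was 0.33 (SE 0.11), or 0.30 without passage 7. Pmvk, the phosphomevalonate kinase, measured 8.60, 7.97 and 8.49 against 8.73, 8.78 and 8.93, and its difference of 0.46 (SE 0.15) was 0.28 without passage 7. The farnesyl diphosphate synthase Fdps differed by 0.27 (0.32 without passage 7) and the decarboxylase Mvd by 0.21. The lanosterol synthase Lss measured 10.84, 10.60 and 10.73 against 11.13, 10.98 and 11.01, a difference of 0.31 (SE 0.11). Ebp, the sterol isomerase, differed by 0.42 and Hsd17b7, a keto-reductase of the pathway, by 0.25. Pmvk and Ebp were called with passage as a block.

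Of the 9 genes of sterol sensing and uptake, 7 were higher with a median of 0.22, and without passage 7 it was 5 genes and a median of 0.09. Insig1, which retains the sterol sensor in the endoplasmic reticulum, measured 11.13, 10.97 and 10.74 against 11.46, 11.35 and 11.20. Each passage was higher, by 0.33, 0.37 and 0.45, and the difference of 0.39 (SE 0.13) was called with passage as a block. Stard4, a cholesterol carrier, differed by 0.36 and the lysosomal cholesterol exporters Npc1 and Npc2 by 0.32 and 0.22, which were 0.14 and 0.11 without passage 7. The LXR targets were split, 4 higher and 5 lower, with the phospholipid transfer protein Pltp at -0.44 (called with the block) and the cholesterol exporter Abca1 at 0.30 (0.18 without passage 7).

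**Figure D4:**
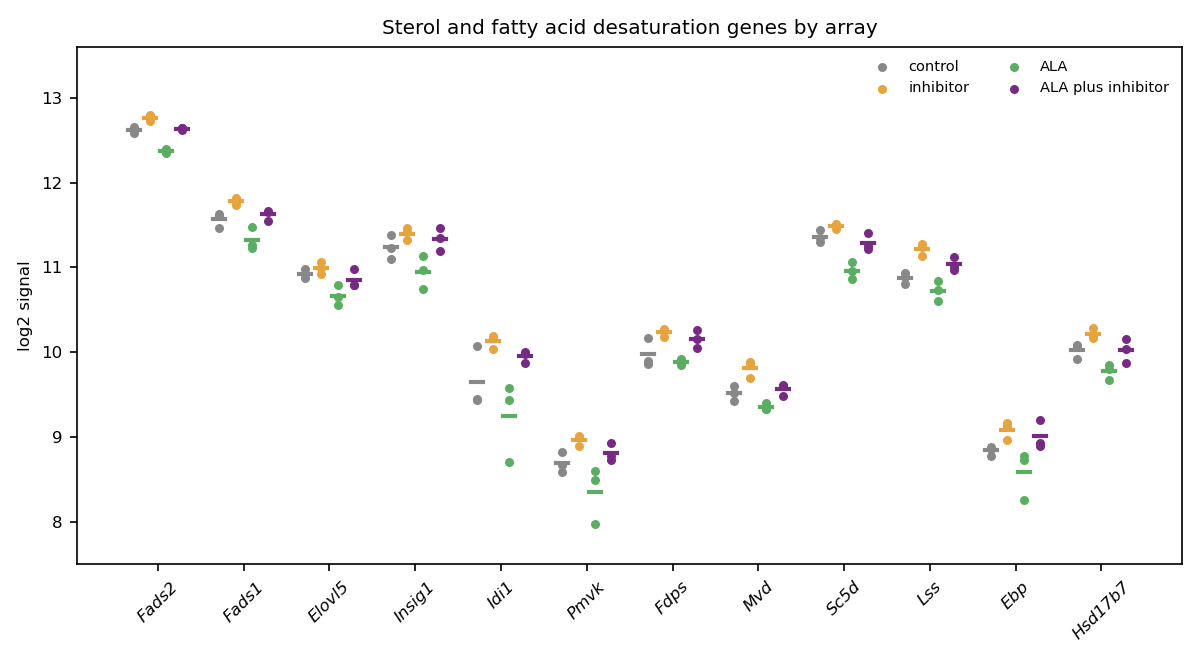
Log2 signal of desaturation genes and of sterol genes on all 12 arrays, 3 points per treatment with a bar at the mean. In the ALA plus inhibitor arrays each gene has a higher mean than in the ALA arrays, by 0.26 for Fads2, 0.39 for Insig1 and 0.33 for Sc5d.

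Promoter sequences of the sterol genes are shown because these genes were higher together. They come from RefSeq (build GRCm38.p6) and run from 250 bases before to 50 bases after the start, and 6 of the 7 mevalonate genes and 8 of the 10 later genes had an entry. CCAAT, the box bound by NF-Y, was searched on both strands and reads ATTGG on the other one. It occurred in 6 of 7 promoters of the mevalonate genes (85.7%) and in 8 of 10 of the later genes (80.0%), against 37.4% of all 32851 promoters and 37.9% of the 10443 promoters of genes above the array median. A sterol regulatory element with the letters TCACNCCAC occurred in 1 of the 17, that of Hmgcs1, and in 1.2% of all. Matches of different motifs were counted separately even where they share bases. A match describes the letters and says nothing on binding in these cells. In the windows below, read 5′ to 3′ on the gene's strand, capitals mark the sterol element of Hmgcs1 and the CCAAT box of the others. Hmgcs1, the synthase at the entry to the pathway, lies outside the rule for named genes, is shown for its match and differed by 0.12. The windows lie at chr13:119690194-119690242 (plus strand) for Hmgcs1, chr13:8885541-8885585 (plus) for Idi1, chr9:42264301-42264344 (minus) for Sc5d, chr10:76531523-76531567 (plus) for Lss, chr3:89454385-89454429 (plus) for Pmvk and chrX:8193543-8193587 (minus) for Ebp.
Hmgcs1: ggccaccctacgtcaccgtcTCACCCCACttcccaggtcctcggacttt
Idi1: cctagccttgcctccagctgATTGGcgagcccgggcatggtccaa
Sc5d: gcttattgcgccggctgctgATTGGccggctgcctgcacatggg
Lss: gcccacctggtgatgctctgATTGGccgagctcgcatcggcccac
Pmvk: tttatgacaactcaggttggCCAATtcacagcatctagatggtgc
Ebp: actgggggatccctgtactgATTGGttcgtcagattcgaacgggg

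Genes of the integrated stress response, which Atf4 directs when amino acids run short or the endoplasmic reticulum is strained, were higher by small amounts. Of 25 genes above the array median, 22 were higher and 3 lower. The median of 0.14 (0.11, 0.16 and 0.14 by passage) was 0.13 without passage 7, and no gene of the list was called. Slc7a11, the cystine importer, measured 6.95, 6.92 and 6.83 with ALA and 7.18, 7.19 and 7.39 with both, a difference of 0.35 (SE 0.15). Atf3 measured 7.58, 7.40 and 7.47 against 7.90, 7.68 and 7.92, a difference of 0.34 (SE 0.15) and of 0.38 without passage 7. In both genes the groups did not overlap. Atf4 itself differed by 0.24 (0.14 without passage 7), and Aldh1l2, a mitochondrial folate enzyme, by 0.42 (0.30 without).

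The element bound by ATF4 was searched as TGATGNAA on both strands. It occurred in 7 of the 25 promoters of stress-response genes (28.0%), against 4.0% of all promoters and 2.2% of those of genes above the array median. The list was made of genes linked to ATF4, so this share describes the list and not the arrays. The windows of Slc7a11 (chr3:50443633-50443699, minus strand), with 2 matches facing each other, and Atf3 (chr1:191183416-191183463, minus strand), with 1 on the opposite strand, are shown with the matches in capitals.
Slc7a11: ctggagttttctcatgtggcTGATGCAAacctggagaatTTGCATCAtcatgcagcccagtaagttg
Atf3: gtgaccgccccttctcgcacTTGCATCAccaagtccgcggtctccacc

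Chaperones of the endoplasmic reticulum were higher in 19 of 21 genes, with a median of 0.14 (0.08 without passage 7). Pdia3, a disulfide isomerase, differed by 0.29, Hspa5, the main chaperone BiP, by 0.23 and Sel1l, a subunit of the degradation machinery, by 0.33, while Derl3 was lower by 0.39. Without passage 7 all 4 were smaller, Pdia3 at 0.17, Hspa5 at 0.13, Sel1l at 0.09 and Derl3 at -0.14. Of 29 targets of NRF2, the regulator of antioxidant genes, 22 were higher with a median of 0.10, but the passages differed, with medians of 0.13, 0.20 and -0.03. Nqo1, a quinone reductase, measured 7.70, 7.27 and 7.78 against 8.11, 8.05 and 7.77. It was thus higher in passages 6 and 7 and level in passage 8, with a difference of 0.39 (SE 0.15) that was 0.20 without passage 7. Hmox1, the heme oxygenase, differed by 0.31 (0.20 without passage 7), and Sqstm1, an autophagy adaptor, by 0.22.

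Eicosanoid enzymes showed a few larger differences in a list that was otherwise level, with 8 of 13 higher and a median of 0.05. Besides Ptgs2, the prostaglandin E synthase gene Ptges2 was called, so 2 of the 13 were called higher, against 0.488% of all genes. Ptgs2 had an ALA mean of 6.14, under the array median line. It entered the 13 only through the arrays with the inhibitor (mean 6.84), so the filter favoured its higher sign. Ptges2 lay above the line in both groups. Ptges2 measured 8.70, 8.37 and 8.59 with ALA and 9.12, 9.06 and 8.85 with both, a difference of 0.45 (SE 0.12) and of 0.34 without passage 7. Pla2g4a, the phospholipase that frees arachidonic acid from membranes, measured 7.86, 6.90 and 7.24 against 8.27, 8.03 and 7.69. Each passage was higher, and the difference of 0.66 (SE 0.24; 0.43 without passage 7) was called with passage as a block. Ptges3 differed by 0.49, nearly all of it in passage 7, and by 0.08 without it.

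Adipocyte markers split between genes at nearly the same level and a group that was lower. Of 23 genes, 17 were lower and 6 higher, with a median of -0.14, and 19 were lower without passage 7 (median -0.16). Car3, Pck1 and Bscl2 were called, against 0.478% of all genes called lower. Bscl2, the lipid droplet protein seipin, measured 9.18, 9.27 and 8.71 against 8.36, 8.50 and 8.67. It differed in passages 6 and 7 by -0.82 and -0.78 and in passage 8 by -0.04. Aqp7, the glycerol channel, differed by -0.70 (SE 0.26; -0.51 without passage 7) and was called with the block. Adipoq measured 13.03, 12.96 and 13.16 against 13.01, 13.09 and 13.19 and differed by 0.05 (SE 0.11), and Fabp4 by 0.00 (SE 0.12), or by -0.11 without passage 7.

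Transcription factors of adipogenesis were lower in 9 of 17 genes with a median of -0.06, and in 14 of 17 without passage 7 (median -0.07). Cebpa measured 10.07, 10.09 and 10.01 against 9.79, 9.81 and 9.83, a difference of -0.25 (SE 0.10) with little spread within a group. Pparg measured 11.83, 11.82 and 11.81 against 11.61, 11.54 and 11.70, a difference of -0.20 (SE 0.10). Neither was called, and in neither did the groups overlap. Ebf1 differed by -0.27 and Zfp423 by -0.26 (-0.15 without passage 7).

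Among lipid-handling lists, lipolysis and lipid droplet genes were lower in 11 of 13, with a median of -0.10. Pde3b, the phosphodiesterase by which insulin restrains lipolysis, differed by -0.26 and G0s2, an inhibitor of the triglyceride lipase, by -0.30 (-0.15 without passage 7). Lipogenesis genes were higher in 10 of 12 with a median of 0.05. Fasn, the fatty acid synthase, differed by 0.03 and Scd1, the delta-9-desaturase, by 0.09, both with overlapping groups. Triacylglycerol genes had a median of -0.02, with 8 of 13 lower (11 of 13 without passage 7). The medians of fatty acid uptake genes (-0.02) and PPAR-responsive genes (-0.03) were likewise near 0, and those 3 medians turned slightly positive with every array centred on its median. Angptl4 and Pdk4, which respond to fatty acids through PPAR receptors, differed by -0.04 and 0.08, and by -0.22 and -0.07 without passage 7. The acyl-CoA synthetase Acsl4, which prefers arachidonic acid, was higher by 0.37 and the transporter Slc27a1 lower by 0.39, both called with the block. In mitochondrial beta-oxidation 10 of 17 genes were lower. Cpt1a, which admits fatty acids to mitochondria, differed by -0.49 (called with the block) and Hadh, a dehydrogenase of the cycle, by -0.27.

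The receptors for fatty acids and related metabolites were lower in all 4 genes above the array median and in all 3 passages, with a median of -0.36 (-0.28 without passage 7). Ffar4, the receptor for long-chain omega-3 fatty acids, measured 9.44, 9.65 and 9.32 with ALA and 8.73, 8.83 and 9.17 with both. It differed by -0.72 and -0.82 in passages 6 and 7 and by -0.15 in passage 8, with a mean of -0.56 (SE 0.22). The lactate receptor Hcar1 measured 10.86, 10.94 and 11.05 against 10.40, 10.34 and 10.77, a difference of -0.45 (SE 0.18) that was called with the block. Hcar2 and the short-chain fatty acid receptor Ffar2 differed by -0.24 and -0.27, or -0.18 and -0.17 without passage 7. None of the 4 was called in the fit without the block.

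Of 15 adipokine genes 7 were higher and 8 lower (median -0.01), and without passage 7 it was 4 and 11 (median -0.05). One was called lower, against 0.478% of all genes. Nrg4, a secreted neuregulin of brown and white fat, measured 8.08, 8.33 and 7.96 against 7.68, 7.56 and 7.56. Every array with the inhibitor was lower, the difference was -0.52 (SE 0.12), and it was -0.40 without passage 7. Leptin (Lep) measured 7.97, 8.03 and 8.37 against 7.48, 7.31 and 7.92. Its difference of -0.56 (SE 0.25) had the same sign in all 3 passages and was called with the block, as was that of Igf1 (-0.37). Thermogenic markers were lower in all 7 genes above the array median, with a median of -0.30, but the passage medians were -0.16, -0.58 and -0.04. Cox7a1, a cytochrome oxidase subunit, differed by -0.35 and Ppargc1a, a coactivator of mitochondrial genes, by -0.30 (-0.09 without passage 7). Zic1, a transcription factor of brown fat, differed by -0.62, with -1.35 in passage 7 and -0.26 without it. Zic1 and Tmem26, another of the 7, had means of 6.03 and 6.07 with both, under the array median line. They passed it only through the ALA arrays, with means of 6.65 and 6.45. The filter thus favoured a lower sign for Zic1 and Tmem26, and the count of 7 is a description.

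Preadipocyte and stromal markers were lower in all 10 genes above the array median. Their median was -0.29 (-0.41, -0.26 and -0.15 by passage) and -0.21 without passage 7. Thy1, a surface protein of stromal cells, measured 9.72, 9.86 and 9.94 with ALA and 9.36, 9.65 and 9.48 with both, a difference of -0.34 (SE 0.13) with no overlap. Dlk1, the preadipocyte factor, differed by -0.30 (SE 0.13), S100a4 by -0.46 and the transcription factor gene Sox9 by -0.37. None was called. With the block Thy1, S100a4 and Acta2, the smooth muscle actin gene, were called, of which Acta2 (-0.56, SE 0.57) is named here after its values were seen. These were 3 of the 10 genes, against 1.44% of all genes called lower with the block. Sfrp2, the only one of 9 secreted Wnt antagonists above the array median, measured 8.66, 8.99 and 9.55 against 7.88, 7.89 and 8.75. It differed by -0.78, -1.11 and -0.80. The mean of -0.89 (SE 0.37 without the block) was called with the block.

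Matrix genes and matrix enzymes were lower in 21 of 23, with a median of -0.14 (-0.12 without passage 7). Decorin (Dcn) measured 10.60, 11.07 and 11.33 against 10.09, 10.17 and 10.89. Within each group it was lowest at passage 6 and highest at passage 8, and each passage was lower with the inhibitor, by 0.51, 0.90 and 0.44. Its difference of -0.62 (SE 0.31), like those of Lox, a collagen cross-linking oxidase (-0.41), and Thbs1, a thrombospondin (-0.44), was called with the block. In all, the block called 5 of the 23 lower, against 1.44% of all genes. Collagen genes as a list did not follow, with 10 of 18 higher and a median of 0.00, whose sign turned with quantile normalization and without passage 7. The stromal markers were lower along with the matrix genes, and the mean log2 signal of the 10 markers was 9.88, 9.99 and 10.20 with ALA at passages 6, 7 and 8 and 9.56, 9.64 and 10.05 with both. The part of the stromal cells in the matrix values was not tested. Acute-phase and inflammatory genes were lower in 10 of 14. Haptoglobin (Hp) measured 9.69, 9.99 and 10.37 against 9.05, 9.52 and 9.81, and its difference of -0.56 (SE 0.24), like that of the chemokine gene Ccl2 (-0.47), was called with the block. In all, the block called 4 of the 14 lower, against 1.44% of all genes, and 1 higher, against 0.836%. The higher one was Ptgs2 (0.69), the only gene of the list that was also called without the block. Ptgs2 passed the array median line only through the arrays with the inhibitor, so the filter favoured its higher sign.

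Ribosomal and mitochondrial lists were higher mainly in passage 7. Cytosolic ribosomal protein genes were higher in 47 of 58, with passage medians of 0.06, 0.26 and 0.04 and a median of 0.06, with 43 higher, without passage 7. Mitochondrial ribosomal protein genes were higher in 61 of 74, with passage medians of 0.08, 0.19 and -0.01, and in 46 without passage 7. Rpl35a differed by 0.12, 1.73 and 0.29 at passages 6, 7 and 8. Its mean difference of 0.71 was 0.21 without passage 7, whose ALA array, at 7.94, lay more than 1 unit below the other ALA arrays. Mrps23, with 8.38, 8.11 and 8.19 against 8.54, 8.52 and 8.46, kept most of its difference (0.28, and 0.21 without passage 7). The genes of the respiratory chain and ATP synthase had a median of 0.05 that turned to -0.0044 without passage 7. Glycolysis and hypoxia genes likewise went from 0.07 to -0.0062.

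Among 19 insulin signalling genes 14 were lower with a median of -0.06, and 16 were lower without passage 7 (median -0.08). Irs1 and Irs2, the insulin receptor substrates, differed by -0.35 and -0.39, and Irs1 was called with the block. The cell cycle list had a median of -0.04 (15 of 28 genes lower), and without passage 7 the median was -0.10 and 23 genes were lower. The proliferation marker Mki67 differed by -0.37. Among carbonic anhydrases, Car2 was called besides Car3, at -0.53 (SE 0.17), and was no longer called with the block. Thus 2 of the 8 above the array median were called lower, against 0.478% of all genes. Car2 had a mean of 6.03 with both, under the array median line. It passed the line only through the ALA arrays (mean 6.56), so the filter favoured its lower sign. The list as a whole was split, with 4 higher, 4 lower and a median of 0.05 (0.03 without passage 7). Retinaldehyde and aldehyde dehydrogenase genes had 7 of 12 higher, with a median of 0.11 that was 0.02 without passage 7. Aldh1a7 measured 9.48, 9.39 and 9.50 against 9.76, 9.75 and 9.73, a difference of 0.29 (SE 0.10) with no overlap, and of 0.25 without passage 7.

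**Figure D5:**
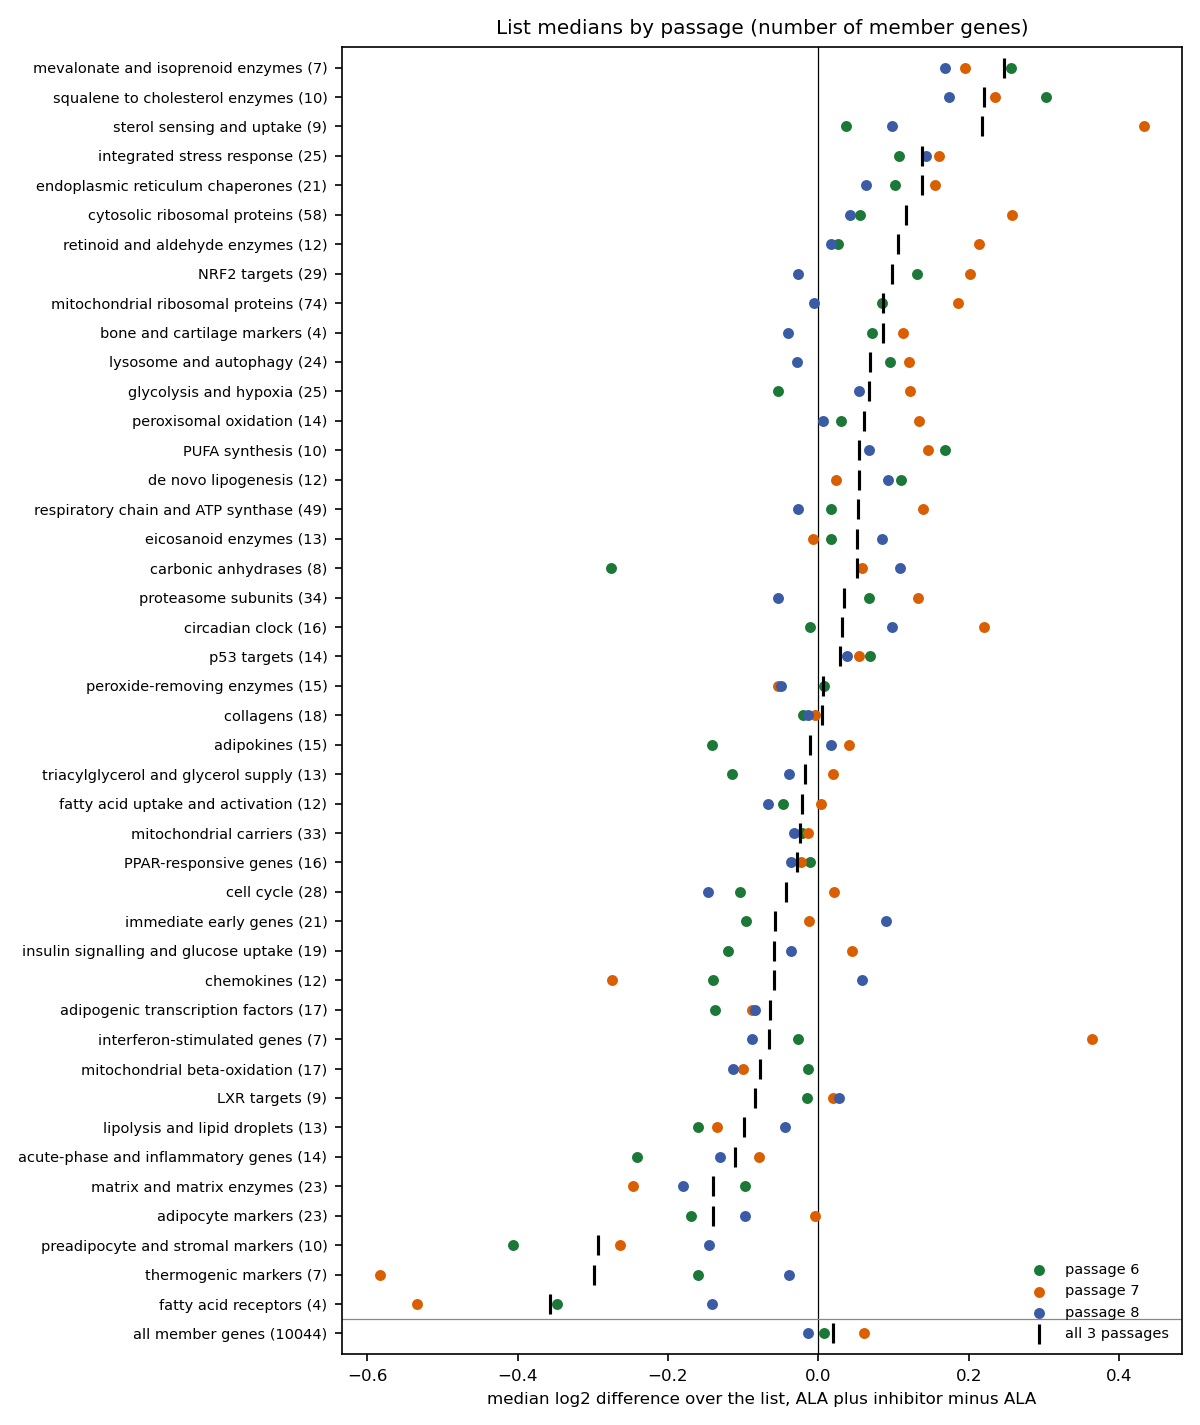
Median log2 difference between ALA plus inhibitor and ALA for each gene list with at least 4 genes above the array median, as points for passages 6, 7 and 8 and a black bar for all passages, with all 10044 genes in the lowest line. The sterol lists lie to the right and the stromal, thermogenic and receptor lists to the left in all 3 passages, while the ribosomal lists lie far right in passage 7 alone, at 0.26 for cytosolic ribosomal proteins.

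The inhibitor was also compared with control, on 6 other arrays that share no culture with those above but come from the same passages. Across the 10044 genes, 66.4% differed the same way with and without ALA, and Pearson's r across genes was 0.483, as a description, since genes are not independent replicates. Of the genes called with ALA, 38 of the 49 higher and 43 of the 48 lower had the same sign without ALA. Their median differences without ALA were 0.10 and -0.12, against 0.50 and -0.47 with it. Genes chosen for their size in one comparison tend to be smaller in another, so these medians are a description only. Of the genes called with passage as a block, 73 of 84 higher and 131 of 145 lower ones shared the sign.

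Some leading genes differed by similar amounts in both settings. Pck1 differed by -1.17 with ALA and -0.97 without, B3galt2 by -0.93 and -0.96, Arxes1 by -0.94 and -0.75 and Ptgs2 by 0.69 and 0.58. Car3 differed by -1.44 with ALA and by -0.78 without it, where each passage was again lower (-0.71, -1.12 and -0.53). Pla2g4a differed by 0.66 and 0.67, Idi1 by 0.71 and 0.48 and Lss by 0.31 and 0.34. Ffar4 was lower by 0.56 with ALA and by 0.98 without, and Fads2 was higher by 0.26 and 0.15.

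The test of the interaction, the difference between both inhibitor effects, called 141 of 22104 clusters (0.638%) and 8 of the 10044 genes (0.0796%). Its smallest adjusted p in limma was 1, and 0.996 with passage as a block, where 24 genes were called (0.239%). A difference between the inhibitor's effects with and without ALA was thus not detectable for single genes with 3 arrays a group, which does not show that the effects are equal. The comparison of ALA with control uses the same 3 ALA arrays, so it cannot serve as a separate check. In it, Idi1 differed by -0.41, Sc5d by -0.40, Fads2 by -0.24 and Car3 by 0.64.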

How the data were processed

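The deposited values are log2 signals per transcript cluster that the authors made with RMA (background correction, normalization across arrays and probe summary), per the submitters' processing notes; its software and version are stated in no label or header used here. Symbols came from GEO's platform annotation, with 1 symbol for 19509 of 22104 clusters and none for 2595, and the cluster of highest mean stood for a gene. limma 3.58.1 in R 4.3.3 was fitted to all 12 arrays and all clusters, with a coefficient per treatment and no block. Every SE printed comes from this fit, also beside a call with the block. The only exceptions are the block SEs given for Car3, Pck1, B3galt2, Idi1, Crebrf and Ptgs2. A cluster was called at an unadjusted p under 0.01, as the series design states, and Benjamini-Hochberg adjustment ran over all clusters. The fit was tested only on simulated data with independent noise and changes larger than any mean difference reported here. That test had no passage effect and does not cover smaller changes.

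The labels give passage numbers, and cultures of the same passage were taken as pairs. Whether they were grown side by side is not stated. Deviations of the ALA and the ALA plus inhibitor arrays from their group means correlated at 0.163, 0.163 and 0.235 for passages 6, 7 and 8. Alternatives were the passage block, quantile normalization, median centring, array weights, a robust trend, only the 6 arrays compared, a filter on dim clusters, and each array or passage left out.

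Named genes were the 12 higher and 12 lower called genes with the largest differences and the same sign in every passage, the leading 6 each way without passage 7, a fixed set of fatty acid and adipocyte genes, and up to 4 genes with the smallest p of each of 49 lists. The genes described and the lists were chosen with earlier results of these data known. Promoters are RefSeq's, build GRCm38.p6.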

Additional observations from a re-analysis of the deposited data

Results flagged for a closer look

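For 3 genes named for their difference with ALA, the interaction term, which compares the inhibitor's difference with and without ALA, had an unadjusted p under 0.01. Of all 10044 genes 8 (0.0796%) did. The 3 genes were chosen on arrays that the interaction term shares, so these values are a description. Gtf2h4, the TFIIH subunit gene, was higher by 0.68 with ALA and by 0.12 without, an interaction of 0.5595 (SE 0.17). Egfl8 was higher by 0.61 with ALA and lower by 0.37 without, an interaction of 0.9739 (SE 0.22). Without ALA its passages differed by -0.04, -0.69 and -0.36. Cyb5rl was lower by 0.52 with ALA and higher by 0.15 without, an interaction of -0.673 (SE 0.16). For Egfl8 all 3 passages were higher with ALA and all 3 lower without it. The limma adjusted p of each of these interactions was 1.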

How the results depend on the processing

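The number of calls depended on the setting. The 34 genes named for a call with or without passage 7 kept their sign in all 782 values from 23 alternatives. In 171 of these values a called gene no longer passed, and in 9 an uncalled one (Rcsd1, Tmem191c or Zscan20) did. These genes were chosen on the same arrays, most of them also for the same sign in every passage. Their kept signs are thus a description and add no test. With passage as a replicate block the calls among genes above the array median went from 97 to 229, those over all clusters from 325 to 561 and the interaction calls from 141 to 207. Among genes named for a call the block ended that of Car2 and added that of Zscan20, and it added 24 of the 166 other named genes. It changed no other call of a named gene. The block with quantile normalization, chosen after seeing the data, gave 254, 567 and 212. Fitting only the 6 arrays gave 37 and 188 calls, the robust trend gave 168 among genes above the array median, and the interaction gave 280 with array weights and 57 without the dimmest 30% of clusters.

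Leaving out 1 passage or array gave 14 to 267 calls among genes above the array median, 135 to 624 over all clusters and 92 to 211 for the interaction. The first count was 14 without passage 7, 27 without its ALA array and 38 without its ALA plus inhibitor array. It was 49 without passage 6, 37 without the ALA plus inhibitor array of passage 6 and 267 without the ALA array of passage 6. Without passage 8 it was 87, without its ALA array 114 and without its ALA plus inhibitor array 128. Over all clusters 33.8% of calls were higher, and 46.9% with arrays centred on their medians. No adjusted p passed 0.05 under the settings printed in the report, so each named gene rests on an unadjusted p and on 3 cultures a group.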
